A study of Danio rerio with 20 samples.

Results

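The oligodendrocyte lineage genes described here are 10 genes of zebrafish brain RNA: olig1, olig2, sox10, nkx2.2a, nkx6.2, myrf, gpr17, pdgfra, erbb3b and cspg4. They were chosen by symbol, ignoring case, from a deposited table of read counts for 32105 gene identifiers. Each matched 1 identifier, and all 10 were among the 21148 genes with enough counts to be tested. The symbol of nkx2.2a was found as NKX2-2 and that of nkx6.2 as NKX6-2, after the point was replaced by a hyphen, which goes beyond a match of the symbol as written. A separate identifier carries the symbol nkx2.2b.

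The 20 libraries came from whole-tissue brain RNA of male fish of the strain labelled AB JxTu, in 4 groups of 5. The groups were fish of 1 year with no perturbation, fish of 1 year from the swim tunnel, fish of 3 years with no perturbation and fish of 3 years from the swim tunnel. In a swim tunnel a fish is exercised by holding its place in flowing water, and swimming time was not analysed here. Nothing in the labels ties a library to its own fish, so the p-values speak only for variation among these libraries, which may be technical. Ages were compared between separate libraries and not followed over time. Sample numbers in the titles run in blocks by group, so the order they reflect cannot be told apart from age or exercise.

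Oligodendrocytes wrap axons of the central nervous system in myelin, and they arise from dividing precursor cells that persist in the adult brain. Transcription factors such as Olig2 and Sox10 specify and maintain the lineage, and Myrf then switches on myelin genes. Receptors on the precursor's surface read growth and guidance signals, and Gpr17 marks a passing stage between precursor and myelinating cell in mammals and zebrafish.

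Libraries held 23390453 to 34587938 counts, and the members had between 66 counts (cspg4) and 3183 counts (olig2) in a library. Myelin genes, the defining markers of mature oligodendrocytes, were abundant: mbpa averaged 10019 CPM and plp1b 1085 CPM over the 20 libraries, where CPM is the count scaled to 1000000 counts of the library, after TMM scaling. Some libraries stood apart on marker lists of neighbouring tissues. A score, the mean log2 CPM of a list's genes, was taken as high when it lay more than 1.5 interquartile ranges above the upper quartile of the libraries. By this limit 3 libraries were high for retina and pineal genes, 2 for epidermis, 3 for inner ear and 1 for pituitary. Setting these aside leaves 3, 3, 3 and 2 libraries in the 4 groups in the order above. Skeletal muscle scores ran from 0.12 to 5.04, and none passed the limit, which this wide spread set at 7.14. Libraries with raised muscle scores therefore remain among those left, such as unexercised 3-year replicates 4 (4.20) and 5 (3.42).

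Between genes, levels were compared as RPKM, reads scaled to gene length and to the library's total, recomputed from the counts. On this scale olig2, which commits progenitors to the lineage, was the most abundant member, at 42.4 ± 16.3 RPKM (SD, n = 20 libraries). Next came sox10 at 14.2 ± 4.43 RPKM, olig1 at 13.4 ± 2.03 RPKM, myrf at 12.7 ± 5.07 RPKM and nkx6.2 at 11.5 ± 3.23 RPKM, in a narrow band. nkx2.2a stood at 8.58 ± 1.97 RPKM and gpr17 at 5.79 ± 1.90 RPKM. The receptors erbb3b (3.03 ± 1.22 RPKM) and pdgfra (1.46 ± 0.51 RPKM) and the proteoglycan cspg4 (0.68 ± 0.29 RPKM) were lowest. The ranges of mean ± SD of neighbours in this order overlapped in every pair but olig2 and sox10. These SDs run over all groups, so they hold group differences as well as replicate error.

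**Figure D1:**
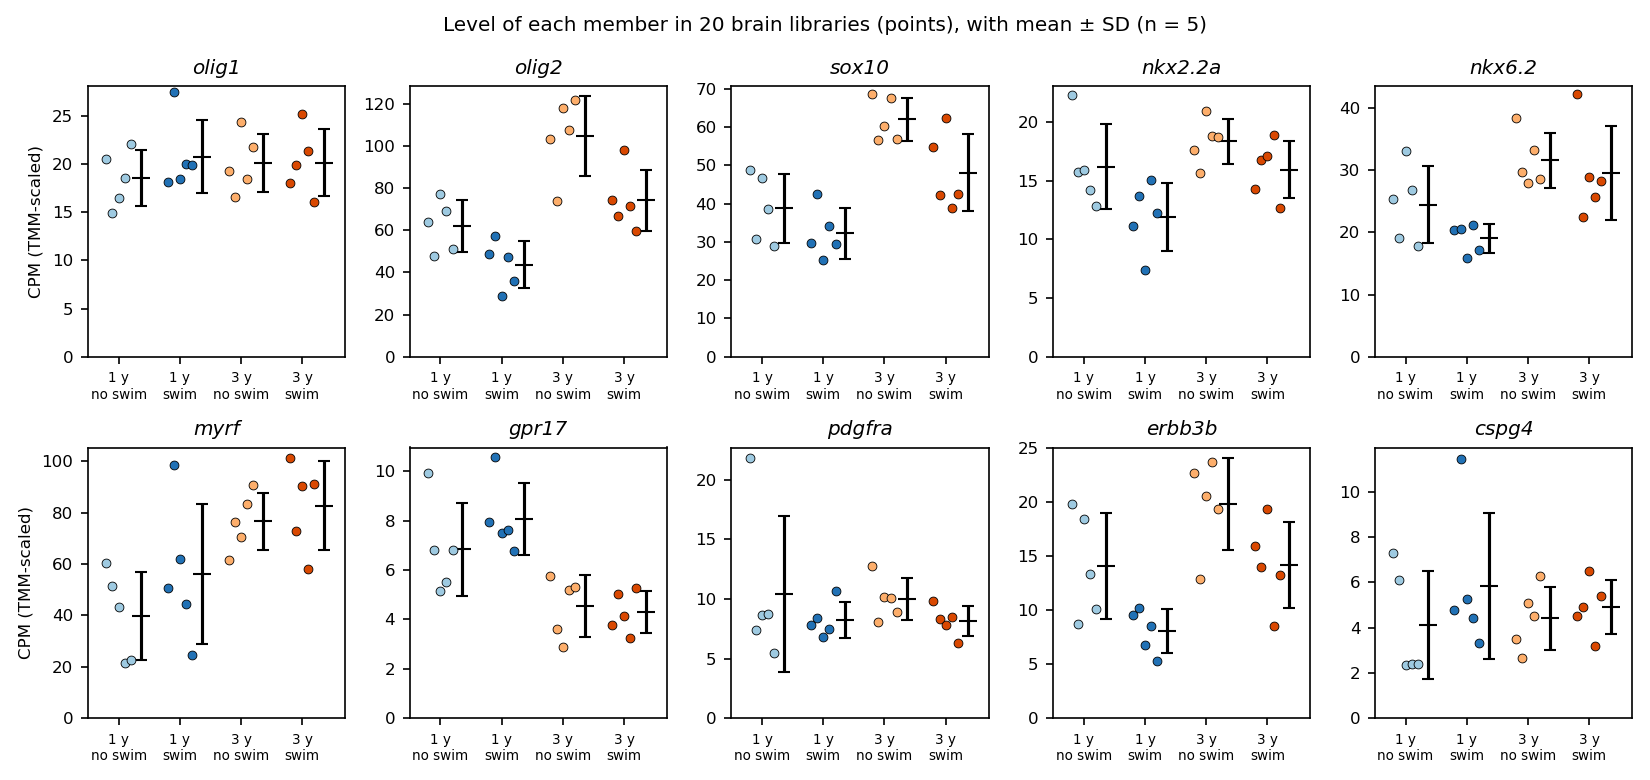
CPM of each member in every library (points, horizontal jitter only for display) by group, with the mean and SD of 5 libraries beside each group. Means of the 3-year groups sit above those of the 1-year groups for olig2 and sox10 and below them for gpr17, while olig1 lies near 20 CPM in all 4 groups.

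Age was the comparison in which the members differed most. Averaged over the exercise groups, 6 of the 10 members differed between 3 and 1 years, 5 higher and 1 lower at 3 years, beside 16.9% of all genes tested (9.65% higher and 7.3% lower). The higher members were olig2, sox10, nkx6.2, myrf and erbb3b, and the lower member was gpr17. The median log2 fold change of the members was 0.40, against 0.0034 for all genes. Tests were edgeR quasi-likelihood F-tests on the counts of all genes, with Benjamini-Hochberg adjustment over all of them, and a gene was called at an adjusted p below 0.05. In whole-tissue RNA, a difference in the number of cells of a type and a difference in RNA per cell cannot be told apart.

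Among the transcription factors, olig2 had CPM of 63.7, 48.0, 77.3, 69.4 and 51.3 in the unexercised 1-year libraries and 48.5, 57.5, 29.0, 47.5 and 36.2 in the exercised ones. At 3 years it had 103, 73.8, 118, 107 and 122 CPM without exercise and 74.6, 67.0, 98.0, 71.5 and 59.8 CPM with it. Exercised groups of the 2 ages did not overlap, and in the unexercised groups only 3-year replicate 2, at 73.8 CPM, reached down into the 1-year range. The log2 fold change with age was 0.76 ± 0.13 (SE; adjusted p = 0.00129), a 1.69-fold difference. All 20 fits that left out a library called it.

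sox10, a partner of olig2 that keeps cells in the lineage and also marks Schwann cells and neural crest, followed the same order of groups. Its CPM were 48.9, 30.7, 46.7, 38.7 and 28.9 in unexercised and 29.7, 42.5, 25.1, 34.2 and 29.5 in exercised 1-year fish. At 3 years they were 68.5, 56.7, 60.3, 67.4 and 56.8 without and 54.8, 42.1, 62.2, 38.9 and 42.4 with exercise. Unexercised groups did not overlap, whereas 1 exercised 1-year library, replicate 2 at 42.5 CPM, exceeded 3 exercised 3-year libraries. At 3 years, sox10 was higher by 0.63 ± 0.12 on the log2 scale (adjusted p = 0.00204), a call that held in all 20 fits without a library.

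nkx6.2, which in mouse takes part in the organisation of myelin at the nodes, had 25.4, 19.1, 33.2, 26.8 and 17.8 CPM in unexercised and 20.5, 20.5, 15.8, 21.2 and 17.2 CPM in exercised 1-year fish. The 3-year libraries had 38.4, 29.8, 27.9, 33.3 and 28.5 CPM without and 42.2, 22.4, 28.8, 25.7 and 28.3 CPM with exercise. Exercised groups did not overlap, while in the unexercised groups replicate 3 of the 1-year fish, at 33.2 CPM, lay within the 3-year range. The log2 fold change was 0.50 ± 0.12 (adjusted p = 0.00982).

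myrf, the activator of myelin genes, was the called factor with the largest standard error. It had 60.4, 51.4, 43.2, 21.4 and 22.9 CPM in unexercised and 50.8, 98.5, 61.9, 44.3 and 24.8 CPM in exercised 1-year fish, against 61.7, 76.5, 70.5, 83.3 and 90.8 CPM and 101, 73.0, 90.3, 57.9 and 91.1 CPM at 3 years. Unexercised groups did not overlap, though their nearest libraries stood at 60.4 and 61.7 CPM. Exercised replicate 2 of the 1-year fish stood near the top of the 3-year range. Replicate 3 of that group, at 61.9 CPM, also exceeded exercised 3-year replicate 4, at 57.9 CPM. The log2 fold change was 0.75 ± 0.22 (adjusted p = 0.0248). Without 3-year exercised replicate 1 the adjusted p was 0.051. That library had the highest myrf level, the high pituitary score and the highest muscle score (5.04). Calls over all genes were 2889 without it, against 3584 in the main fit. Without the 9 libraries with a high tissue score the adjusted p of myrf was 0.0883.

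olig1 and nkx2.2a did not pass. olig1, a relative of olig2 linked in mouse to maturation and repair, had group means of 18.5 ± 2.90, 20.8 ± 3.83, 20.1 ± 3.04 and 20.1 ± 3.46 CPM (SD, n = 5) in the order of groups above, with a log2 fold change of 0.04 and a 95% interval from -0.18 to 0.25. nkx2.2a, a factor that promotes differentiation of precursors, had 16.2 ± 3.64, 11.9 ± 2.92, 18.4 ± 1.91 and 16.0 ± 2.46 CPM and a log2 fold change of 0.30 ± 0.12 (adjusted p = 0.0948). Without 1-year unexercised replicate 1, in which it was highest (22.3 CPM), nkx2.2a passed, at 0.38 (adjusted p = 0.0231).

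Among the receptors, gpr17, a receptor whose loss in mouse speeds differentiation, had the reverse direction. It had 9.94, 6.81, 5.14, 5.53 and 6.81 CPM in unexercised and 7.94, 10.6, 7.51, 7.61 and 6.77 CPM in exercised 1-year fish, against 5.77, 3.60, 2.87, 5.21 and 5.31 CPM and 3.79, 5.01, 4.15, 3.23 and 5.26 CPM at 3 years. Exercised groups did not overlap, and in the unexercised groups the lower 1-year libraries lay within the 3-year range. At 3 years, gpr17 was lower by 0.75 ± 0.15 on the log2 scale (adjusted p = 0.00309), a call that held in all 20 fits without a library.

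erbb3b, a neuregulin receptor that zebrafish Schwann cells need, had 19.8, 8.72, 18.4, 13.4 and 10.1 CPM in unexercised and 9.55, 10.2, 6.77, 8.50 and 5.28 CPM in exercised 1-year fish. At 3 years it had 22.7, 12.8, 20.6, 23.7 and 19.4 CPM without and 15.9, 13.9, 19.4, 8.51 and 13.3 CPM with exercise. The groups of both exercise states overlapped. The log2 fold change with age was 0.66 ± 0.18 (adjusted p = 0.0172).

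pdgfra, the receptor of platelet-derived growth factor that marks precursors in mammals and also fibroblasts, and cspg4, the NG2 proteoglycan that marks precursors and mural cells in mammals, did not pass. pdgfra had 10.4 ± 6.5, 8.23 ± 1.48, 9.98 ± 1.78 and 8.14 ± 1.27 CPM in the 4 groups, and a log2 fold change of -0.04 with a 95% interval from -0.44 to 0.36. cspg4 had 4.12 ± 2.4, 5.85 ± 3.22, 4.41 ± 1.39 and 4.91 ± 1.21 CPM and a log2 fold change of -0.08 with an interval from -0.63 to 0.48. Without 1-year unexercised replicate 1, in which pdgfra was highest (21.8 CPM), its log2 fold change was 0.20 (adjusted p = 0.239).

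Ages were also compared within each exercise state. The 2 comparisons use group means of separate libraries but share 1 estimate of the spread from all 20, so they are not fully independent. With exercise, 5 members were called, olig2, sox10, nkx6.2 and erbb3b higher and gpr17 lower, beside 10.6% of all genes (6.77% higher, 3.88% lower). Log2 fold changes were 0.76 ± 0.19 for olig2 (adjusted p = 0.0166), 0.58 ± 0.17 for sox10 (adjusted p = 0.0327) and 0.63 ± 0.17 for nkx6.2 (adjusted p = 0.0276). They were 0.82 ± 0.25 for erbb3b (adjusted p = 0.0456) and -0.91 ± 0.21 for gpr17 (adjusted p = 0.0136). Leaving out replicate 3 or 5 of the exercised 1-year fish, or replicate 1 of the exercised 3-year fish, took the count to 2. It was 3 when replicate 1 or 4 of the former or replicate 3 of the latter was left out. The erbb3b call held in only 7 of the 20 fits without a library, with adjusted p from 0.0238 to 0.114. It was also lost when some unexercised libraries were left out, such as 3-year replicate 1 (adjusted p = 0.0504). The count of called members was 1, gpr17, without the 5 libraries with a high retina or epidermis score. It was 0 without all 9 with a high tissue score, where 3 exercised 1-year and 2 exercised 3-year libraries were left. Calls over all genes fell too, from 2252 in the main fit to 1201 without the 5 libraries and 23 without the 9.

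Without exercise, 0 members were called with edgeR, beside 0.586% of all genes, while 5 had an unadjusted p below 0.05, as did 14.1% of genes. Limma-trend also called 0, and DESeq2 called 2, olig2 and sox10. Over all genes DESeq2 called 533, against 124 with edgeR. The edgeR log2 fold changes of olig2 and sox10 were 0.76 ± 0.19 (adjusted p = 0.0722) and 0.68 ± 0.17 (adjusted p = 0.0726). That of myrf was 0.94 ± 0.31 (adjusted p = 0.188) and that of gpr17 -0.59 ± 0.21 (adjusted p = 0.219). 1 member was called without 1-year unexercised replicate 1 (sox10) and without 3-year unexercised replicate 2 (olig2). The age effects with and without exercise were not shown to differ: the test of their difference called 0 members with edgeR, 0 at an unadjusted p below 0.05, and 0 with DESeq2 and limma-trend. Of all genes 0.00473% were called and 4.75% had an unadjusted p below 0.05. Adjusted p of the members were 0.982 or more.

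Whether groups overlapped picked out members that differ in part from those called. In unexercised fish, sox10 and myrf were higher at 3 years in every library, beside 1.24% of all genes. In exercised fish, olig2 and nkx6.2 were higher in every 3-year library, beside 6.99% of genes, and gpr17 was lower, beside 4.34%, while sox10 and erbb3b, also called there, overlapped. With all 10 libraries of each age, 0 of the members were without overlap, beside 0.426% of genes.

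**Figure D2:**
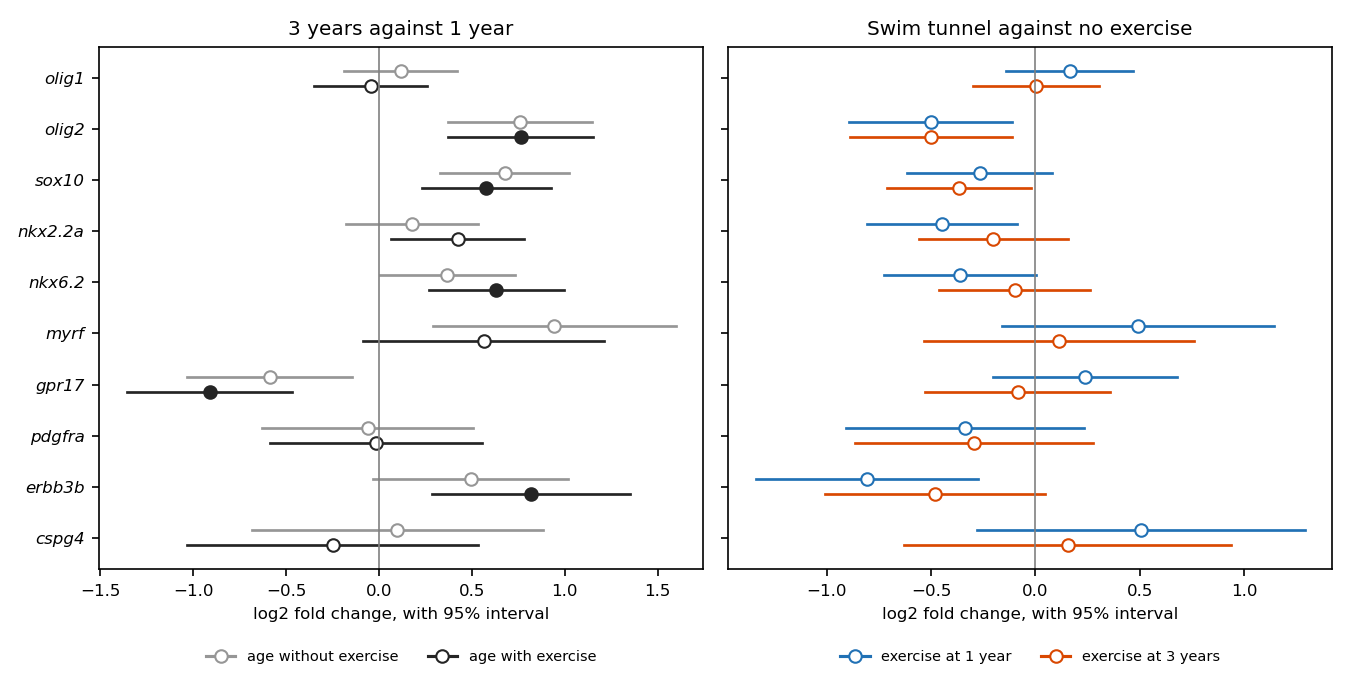
Log2 fold changes of the members with 95% intervals, for age (3 years against 1 year, left) and exercise (swim tunnel against none, right), with a filled point where the adjusted p was below 0.05. Filled points appear only for age with exercise, and no point of the exercise comparisons is filled.

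Exercise was the other factor of the design. With edgeR 0 of the 10 members were called at 1 year, at 3 years or averaged over ages, beside 0.0189%, 0.0284% and 0.908% of all genes. At an unadjusted p below 0.05 there were 3, 2 and 4 members, all lower in exercised fish, beside 11.5%, 8.07% and 13.8% of genes in either direction and 6.44%, 4.11% and 7.34% in the lower direction. Limma-trend called 0 in each, and DESeq2 called 0, 0 and 2. Over all genes DESeq2 called 266, 118 and 663, against 4, 6 and 192 with edgeR. The median log2 fold change over the members was -0.30 at 1 year, -0.15 at 3 years and -0.27 averaged, with -0.02, 0.0047 and -0.02 over all genes. Without 1-year unexercised replicate 1 the members' median at 1 year was -0.01.

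Of the single members, olig2 had the smallest p for exercise averaged over ages, with a log2 fold change of -0.50 ± 0.13 (adjusted p = 0.0741). erbb3b had -0.64 ± 0.18 (adjusted p = 0.0928). Both lay above the threshold with edgeR and below it with DESeq2 (adjusted p = 0.012 and 0.0217), and olig2 also passed with edgeR when replicate 5 of the unexercised 1-year fish, or replicate 2 of the unexercised or 3 of the exercised 3-year fish, was left out. At 1 year they stood at -0.50 ± 0.19 and -0.81 ± 0.25 and at 3 years at -0.50 ± 0.18 and -0.48 ± 0.25. Levels of olig2 overlapped between exercised and unexercised fish at both ages. Without the 9 libraries with a high tissue score, 3, 3, 3 and 2 libraries were left in the 4 groups. The fold changes averaged over ages were then nearer 0, at -0.24 for olig2 and -0.18 for erbb3b (adjusted p = 0.845 and 0.884), and at -0.04 for sox10. A fit with so few libraries has less power, and the part of this in these adjusted p was not tested. Markers of other tissues and cells are given beside these values. Averaged over ages, 14 retina and pineal genes had a median log2 fold change of 2.55 and 20 epidermis genes one of -1.13, with 0 of either list called and 11 higher and 10 lower at an unadjusted p below 0.05. The retina score was 3.06 to 3.57 in 3 exercised libraries and -0.90 to 0.06 in all others, and the epidermis score was 5.23 and 4.32 in 2 unexercised libraries and 1.55 to 2.91 in all others. Averaged over ages, the median was 0.99 for 6 pituitary genes and -0.05 for 16 inner ear genes, with 0 called. At an unadjusted p below 0.05, 3 pituitary genes were higher and 1 lower, and 1 inner ear gene was higher and 0 lower. For 18 skeletal muscle genes the median log2 fold change was -1.63 at 1 year, 0.08 at 3 years and -0.74 averaged, with 0 called. At an unadjusted p below 0.05, 1 was higher and 8 lower at 1 year, 4 higher and 0 lower at 3 years, and 1 higher and 3 lower averaged. All 23 microglia and macrophage genes had a negative log2 fold change at 1 year (median -0.59, 0 called, 11 at an unadjusted p below 0.05) and averaged over ages (median -0.21, 0 called, 3 at an unadjusted p below 0.05), while at 3 years their median was 0.19, with 0 at an unadjusted p below 0.05. Of 20 radial glia and astroglia genes, 2 were called higher averaged over ages and 0 lower, with a median of 0.03. These were her15.1 (0.66 ± 0.13, adjusted p = 0.0181) and GLUL (ENSDARG00000100003, 0.54 ± 0.12, adjusted p = 0.0366). Of 25 neuron genes, 21 had a positive and 4 a negative log2 fold change at 1 year, beside 45.2% of all genes positive. At 3 years 11 were positive and 14 negative. Their medians were 0.12 at 1 year, -0.02 at 3 years and 0.04 averaged, with 0 called. The part of the retina, epidermis, pituitary, inner ear, muscle, microglia, radial glia and neuron markers in the members' exercise values was not tested. Setting libraries aside for several tissues at once does not test any single tissue. Averaged over ages, sox10 had -0.32 ± 0.12 (adjusted p = 0.231) and nkx2.2a -0.32 ± 0.12 (adjusted p = 0.236). Log2 fold changes of myrf (0.30 ± 0.22), cspg4 (0.33 ± 0.26), olig1 (0.08 ± 0.10), gpr17 (0.08 ± 0.15), nkx6.2 (-0.23 ± 0.12) and pdgfra (-0.32 ± 0.19) had adjusted p of 0.411 or more.

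Because gpr17 was lower and sox10 higher with age, the relation between members was looked at within libraries. These ratios were chosen after the values were seen, so they are given as description. The ratio of gpr17 to sox10, in CPM, was 0.203, 0.222, 0.110, 0.143 and 0.235 in unexercised and 0.267, 0.249, 0.299, 0.223 and 0.229 in exercised 1-year fish. At 3 years it was 0.0843, 0.0636, 0.0476, 0.0773 and 0.0935 without and 0.0692, 0.119, 0.0667, 0.0831 and 0.124 with exercise. The 1-year libraries run from 0.110 to 0.299 and the 3-year ones from 0.0476 to 0.124, and only unexercised 1-year replicate 3 lies within the 3-year range. The ratio of olig2 to olig1 was 3.41 ± 0.87, 2.11 ± 0.44, 5.21 ± 0.56 and 3.69 ± 0.34 (SD, n = 5) in the 4 groups. Other ratios taken are given by age (mean ± SD, n = 10). At 1 and 3 years, pdgfra to sox10 was 0.260 ± 0.083 and 0.167 ± 0.028, and gpr17 to olig2 was 0.153 ± 0.055 and 0.052 ± 0.018. The ratio of myrf to olig2 was 0.98 ± 0.57 and 0.95 ± 0.31.

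**Figure D3:**
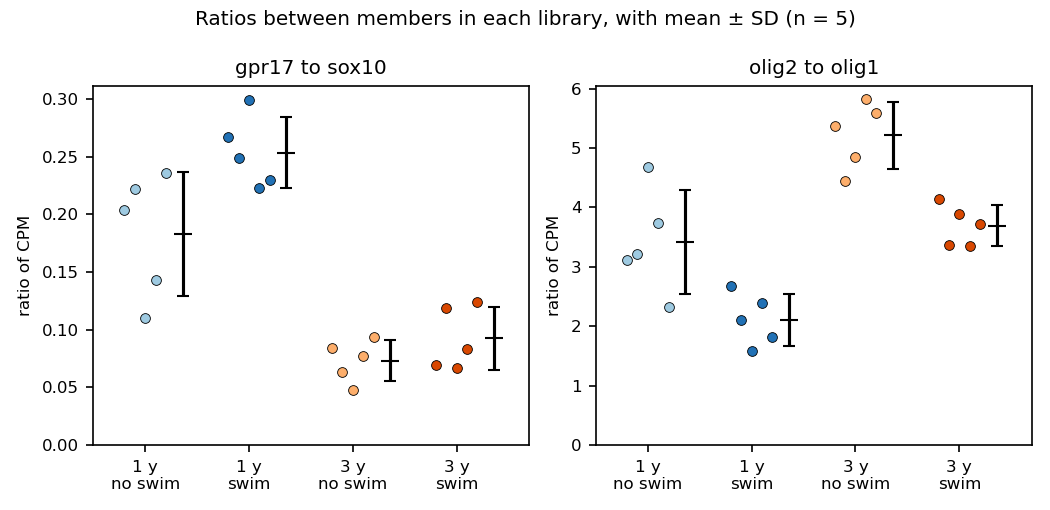
Ratio of gpr17 to sox10 (left) and of olig2 to olig1 (right) in each library, with the mean and SD of 5 libraries. The gpr17 to sox10 ratio reaches at most 0.124 in the 3-year libraries, and 1 of the 1-year libraries, at 0.110, lies below that.

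Some members varied together between libraries of the same group. Group means were removed from log2 CPM, and Pearson's r was computed for 45 pairs over 20 libraries, with p from 100000 permutations within groups. Of the pairs, 42 had a positive r and 5 passed a Benjamini-Hochberg adjusted p of 0.05, with r and with Spearman's rho. Over all pairs of the 21148 genes tested, 49.7% had a positive r, against 93.3% of the member pairs, and 0.721% had an r at least as high as the lowest of the 5 passing pairs. sox10 and erbb3b had r = 0.83 and rho = 0.87 (permutation p = 0.00019 and 3.0e-05, adjusted 0.00855 and 0.00135). Without the 2 libraries farthest from the median of the first-named gene, here sox10, r was 0.80. Libraries extreme only in the second gene stayed in, for this and the other pairs. olig2 and sox10 had r = 0.74 and rho = 0.75 (permutation p = 0.00091 and 0.00072, adjusted 0.0175 and 0.0108), and r = 0.73 without the farthest 2.

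The other pairs that passed were myrf with cspg4, sox10 with nkx6.2 and olig2 with erbb3b. myrf and cspg4 had r = 0.80 and rho = 0.71 (permutation p = 0.00166 and 0.00339, adjusted 0.0175 and 0.0305), with r = 0.73 without 2 libraries. sox10 and nkx6.2 had r = 0.74 and rho = 0.80 (permutation p = 0.00194 and 0.00035, adjusted 0.0175 and 0.00787), with r = 0.84 without 2. olig2 and erbb3b had r = 0.73 and rho = 0.73 (permutation p = 0.00118 and 0.00112, adjusted 0.0175 and 0.0126), with r = 0.72 without 2. Libraries differ in depth and in the tissue scores above, and the part of these in the correlations was not tested. The largest r of gpr17 was with cspg4, at 0.60, and it was 0.05 with olig2.

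**Figure D4:**
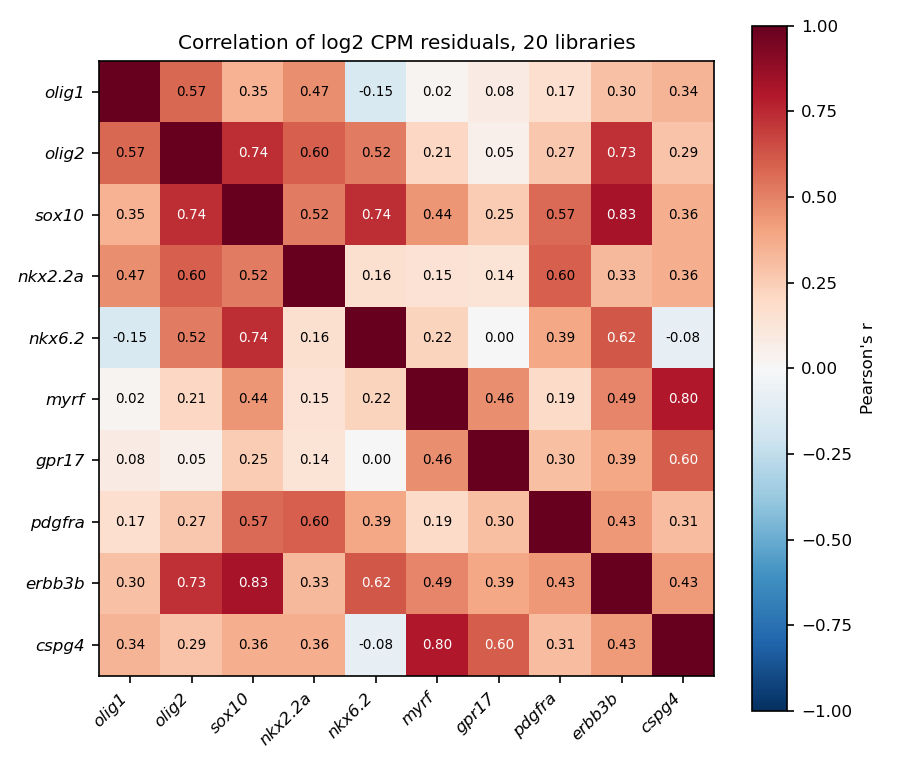
Pearson's r between members over 20 libraries after group means were removed from log2 CPM, with the colour scale from -1 to 1. The 5 highest values, from 0.73 to 0.83, belong to sox10 with erbb3b, myrf with cspg4, olig2 with sox10, sox10 with nkx6.2 and olig2 with erbb3b.

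Likeness was described for olig2, sox10, nkx6.2, myrf, gpr17 and erbb3b, as the highest Pearson's r with 13475 other genes of at least 5 CPM over the 20 libraries, after group means were removed. The gene most like sox10 was gpr61l, at 0.90, and erbb3b was the third, at 0.83. olig2 was most like ZNRF3, at 0.82, and nkx6.2 most like FABP2, at 0.89. myrf was most like fam110d (0.92), gpr17 most like KCNV1 (0.82) and erbb3b most like dchs2 (0.89). Each value was picked as the highest of many, so it is description only and carries no p-value. The part of depth and of the tissue scores in these values was not tested.

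Other genes of the lineage came from 5 lists, and their age differences (averaged over exercise groups) are given for comparison. Of 51 further regulators, 3 were higher and 1 lower with a median log2 fold change of 0.02: SOX9 (ENSDARG00000043923), which precedes Sox10 in glia, by 0.51 ± 0.15, CHD7, a chromatin remodeller, by 0.34 ± 0.10 and sox13 by 0.34 ± 0.11, against CDK5, a kinase, at -0.64 ± 0.21. Of 44 receptors and ligands, 4 were higher and 2 lower with a median of 0.06, among them NOTCH1 (ENSDARG00000103554, 0.45 ± 0.06), FGFR1 (0.52 ± 0.12) and BMPR1A (ENSDARG00000019728, 0.31 ± 0.09) higher and NRG1, a ligand of ErbB receptors, lower (-0.49 ± 0.10). Adjusted p of these named genes lay between 0.000381 and 0.0457.

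Precursor and myelin lists gave other counts. Of 28 precursor markers, 1 was higher and 5 lower, with a median log2 fold change of -0.08, and the lower included LHFPL3 (-0.22 ± 0.06), cnksr3 (-0.47 ± 0.13) and EDNRB (ENSDARG00000053498, -1.61 ± 0.35), an endothelin receptor with a mean of 0.42 CPM. The higher one was PTPRZ1 (ENSDARG00000020871, 0.14 ± 0.04), a receptor phosphatase. Of 20 genes listed for committed and new oligodendrocytes, 1 was higher, samd9l (0.65 ± 0.14), and the list's median was -0.03. Whether samd9l is particular to these cells was not tested. The 3 lower genes were TMEM163 (ENSDARG00000079858, -0.24 ± 0.07), DYNLL2 (ENSDARG00000005172, -0.18 ± 0.06) and CNTN1 (ENSDARG00000045685, -0.26 ± 0.09). Of 34 genes of myelin and mature oligodendrocytes, 6 were higher and 1 lower with a median of 0.12, including HAPLN2 (0.81 ± 0.16), cyp39a1 (0.63 ± 0.11) and GJB1 (ENSDARG00000035553, 0.37 ± 0.10), which encodes a gap junction protein. The lower one was CLDN11 (ENSDARG00000020031, -0.60 ± 0.17), named after its value was seen. Abundant myelin genes that did not pass were also looked at: mbpa had a log2 fold change of -0.07 ± 0.16, plp1b 0.0042 ± 0.11 and mag 0.12 ± 0.11, chosen outside the rule. All p-values were adjusted over the 21148 genes, and the background of 16.9% holds for these counts too. For exercise averaged over ages, edgeR called 0 genes of the 5 lists, and between 1 and 8 genes of a list had an unadjusted p below 0.05.

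**Figure D5:**
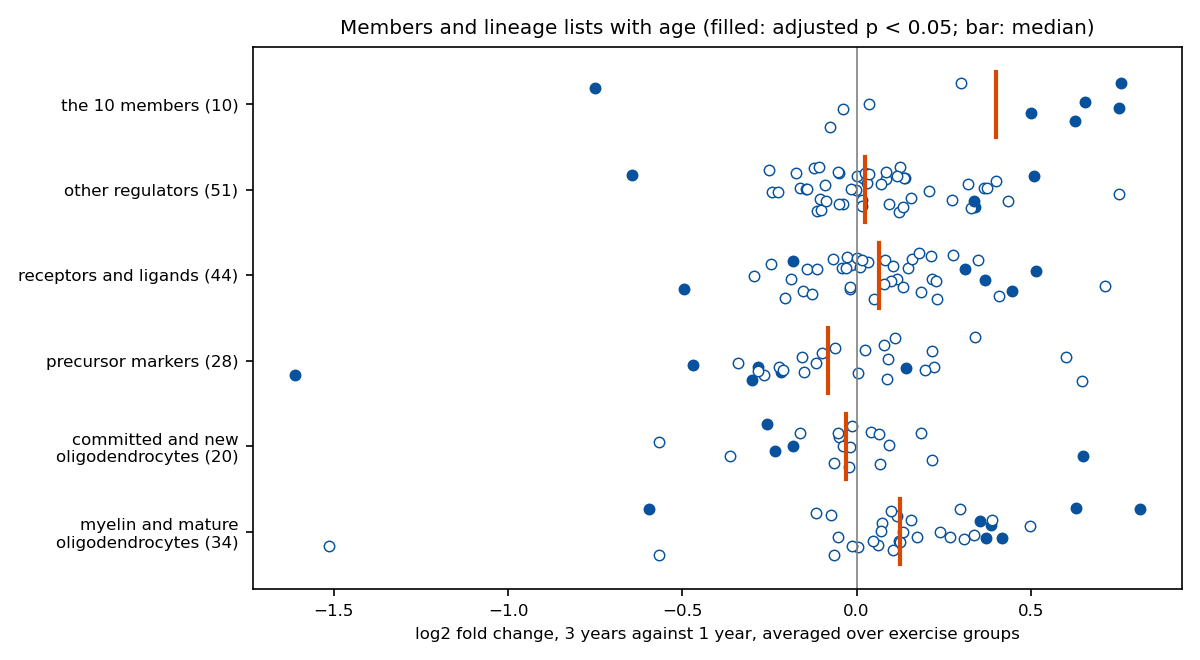
Log2 fold change with age (3 years against 1 year, averaged over exercise groups) of the 10 members and of the tested genes of 5 lineage lists, with filled points at an adjusted p below 0.05 and a bar at the median. The members' median of 0.40 stands to the right of those of the lists, which lie between -0.08 and 0.12.

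Markers of other cells also differed between the ages. Averaged over exercise groups, 9.65% of all genes tested were called higher and 7.3% lower at 3 years. Of 23 microglia and macrophage genes, 17 were higher at 3 years and 0 lower, with a median log2 fold change of 1.03. Their summed level ran from 889 to 2282 CPM and from 989 to 1238 CPM in the 1-year groups and from 1339 to 3429 CPM and from 1756 to 4062 CPM in the 3-year groups. Of 25 neuron genes, 0 were higher and 8 lower, with a median of -0.21, and summed levels of 10700 to 13782 CPM and 12290 to 14093 CPM at 1 year and of 10242 to 12492 CPM and 9405 to 11695 CPM at 3 years. Every gene of both lists had counts in some library. The part of these markers in the members' age differences was not tested.

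Further lists bear on members that other cells express. Their counts averaged over exercise groups stand beside the same 9.65% of all genes higher and 7.3% lower. Of 21 Schwann and neural crest genes, of cells that share sox10 and erbb3b with the lineage, 0 were higher and 1 lower with age. The lower one was EDNRB (ENSDARG00000053498), also counted above among precursor markers. Summed over all 22 matched identifiers, levels were 2193 to 3380 CPM, 2234 to 2890 CPM, 2496 to 3529 CPM and 2530 to 3885 CPM in the 4 groups, and FOXD3 had 0 counts throughout. This list shares mpz and pmp22b with the myelin list and s100b and sox2 with the radial glia list. It also shares adgrg6 with the receptors and ligands and sox8b with the further regulators. Its sums are therefore not particular to Schwann or crest cells. Of 29 fibroblast, meningeal and mural genes tested, 1 was higher and 1 lower. Summed over all 30 matched identifiers of this list, levels were 448 to 1412 CPM, 474 to 1211 CPM, 462 to 704 CPM and 430 to 671 CPM. The part of both lists in the values of sox10, erbb3b, pdgfra and cspg4 was not tested. Of the remaining lists, 2 of 20 radial glia and astroglia genes were higher and 0 lower with age, 0 of 19 genes of dividing cells were called and 1 of 16 pigment cell genes was lower. Among tissue lists, edgeR called 1 of 18 muscle, 1 of 20 epidermis and 1 of 6 pituitary genes higher, averaged over exercise groups. It called 1 higher and 1 lower of 16 inner ear genes, and 0 of 14 retina and pineal genes. For age with exercise, 3 of 6 pituitary genes (median 2.32) and 2 of 18 muscle genes (median 1.28) were higher and 0 lower. Of all genes, 6.77% were then higher and 3.88% lower. Inner ear genes had 1 higher and 1 lower there, and epidermis and retina lists 0. The part of these tissues in the members' age differences was not tested.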

How the data were processed

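Brain RNA of 20 male zebrafish libraries, in 4 groups of 5 (age by exercise), was analysed. The authors deposited whole-number read counts for 32105 genes, and an RPKM table. Per the submitters' processing notes, the build was GRCz10 and the tools named are featureCounts 1.4.6-p4, bcl2fastq 1.8.4 and STAR 2.4.1d, with no roles given. Per the labels' protocols, the TruSeq v2 kit was used; it does not mark strand, so antisense reads cannot be told apart. Dividing counts by the deposited RPKM should give 1 length per gene. Over 10136 well-counted genes that length had a CV of 13.8% (median) with own library totals as divisors, against 0.00217% with totals applied down the genes. Only 5.00% of values used their own total, so RPKM was recomputed from counts and used only to order levels.

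Counts were tested with edgeR 4.0.16 (R 4.3.3): filterByExpr (minimum count 10, total 15), TMM, robust quasi-likelihood F-test on group means over 20 libraries, Benjamini-Hochberg adjusted p below 0.05. Alternatives used limma 3.58.1, DESeq2 1.42.0, other scalings and filters, and left-out libraries. The test was checked on simulated counts. Replicate numbers follow accession order and pair nothing. Members, 17 gene lists and tests were chosen with earlier results of these data known. Named list genes were up to 4 called per list and comparison, smallest p first; some are not reported here. Many list genes, 123 of 444 entries, matched only after a copy letter or point was changed. Symbols came from a reference table.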

Additional observations from a re-analysis of the deposited data

Results flagged for a closer look

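Of 40 sets of 5 libraries (10 members in 4 groups), 3 held a value far from the other 4, where chance gives about 1 in 20. olig1 stood at 27.4 CPM in 1-year exercised replicate 2, against 18.1 to 19.9 CPM in the other libraries of that group. cspg4 stood at 11.5 CPM in the same library, against 3.32 to 5.26 CPM. Its myrf level was also the highest of the group, at 98.5 CPM. pdgfra stood at 21.8 CPM in 1-year unexercised replicate 1, against 5.46 to 8.72 CPM. That library also had the highest score of the fibroblast, meningeal and mural list in its group, 4.46 against 2.80 to 3.25 (mean log2 CPM), and the highest epidermis score, 5.23. The part of these markers in the pdgfra value was not tested.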

How the results depend on the processing

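The median over all genes moved by less than 0.1 (log2) under every scaling. Counts of called members with age averaged over exercise groups lay between 5 and 7 under every alternative. For age with exercise the count of 5 was 4 with limma-trend and without a filter (erbb3b was lost), 1 without the 5 libraries past the retina or epidermis limit (an alternative chosen after seeing the data), 0 without the 9 past any limit, and 2 to 5 with a library left out. The count of 0 was 2 with DESeq2 for age without exercise and for exercise averaged over ages, and 0 to 1 with a library left out in each. It stayed at 0 for exercise at 1 year, at 3 years and for their difference.

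Directions turned only in members that were not called in that comparison. Without the 9 libraries, log2 fold changes were 0.13 for sox10 and 0.15 for pdgfra (exercise at 1 year), 0.33 for pdgfra (age without exercise), and -0.020 for olig1, 0.085 for pdgfra and 0.050 for cspg4 (age averaged). In the difference between exercise effects they were -0.24 for olig2, -0.16 for nkx2.2a, -0.078 for nkx6.2, -0.50 for pdgfra and -0.018 for erbb3b. Without the 5 libraries they were 0.20 for pdgfra (exercise at 1 year), 0.028 for nkx6.2 (exercise at 3 years), 0.41 for pdgfra (age without exercise), and -0.0058 for olig1, 0.16 for pdgfra and 0.12 for cspg4 (age averaged), with -0.029 for olig2, -0.11 for nkx2.2a and -0.51 for pdgfra in the difference. With limma-trend pdgfra was 0.041 and cspg4 0.037 (age averaged), pdgfra 0.095 (age without exercise) and -0.11 (difference), and olig1 -0.0016 (exercise at 3 years). With upper-quartile scaling olig1 was -0.0044 (exercise at 3 years) and pdgfra 0.015 (age with exercise). olig1 was -0.0074 when only the groups compared entered (exercise at 3 years). In the difference olig2 was -0.0049 with DESeq2 size factors, -0.0050 with the DESeq2 test, -0.0050 without a filter and -0.0043 with the stricter filter. Causes were not tested.

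With a library left out, pdgfra ran from -0.50 to 0.13 (exercise at 1 year), -0.22 to 0.42 (age without exercise), -0.091 to 0.094 (age with exercise), -0.12 to 0.20 (age averaged) and -0.43 to 0.21 (difference). cspg4 ran from -0.061 to 0.42 (age without exercise), -0.40 to 0.14 (age with exercise), -0.16 to 0.12 (age averaged) and -0.67 to 0.043 (difference). olig1 ran from -0.091 to 0.081 (exercise at 3 years), -0.14 to 0.074 (age with exercise) and -0.011 to 0.095 (age averaged). gpr17 ran from -0.21 to 0.015 (exercise at 3 years), olig2 from -0.12 to 0.12 and sox10 from -0.21 to 0.020 (difference). No paired analysis was possible because replicate numbers only follow accession order.

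Of all genes, counts called moved more than those of members. The main counts were 4, 6, 1 and 192 for exercise at 1 year, at 3 years, their difference and averaged, and 124, 2252 and 3584 for age without exercise, with exercise and averaged. DESeq2 gave 266, 118, 12, 663, 533 and 3403 for the first 6. Without the 9 libraries they were 1, 1, 2 and 2 for exercise, 23 for age with exercise and 959 averaged. Without the 5 they were 0, 3, 0 and 0 for exercise, 49 for age without and 1201 with exercise. Limma-trend gave 3 for exercise at 3 years, no filter gave 0 for the difference, and fits of only the groups compared gave 8 for exercise at 1 year and 46 for age without exercise. With a library left out the ranges were 0 to 169, 1 to 26, 0 to 1, 89 to 425, 76 to 260, 899 to 2643 and 2889 to 4292. The lowest count of a member in a library was 66, for cspg4, and the part of depth in its spread was not tested.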
